A study of Mus musculus with 39 samples.

Results

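The mitochondrial ribosomal protein genes are those whose symbol starts with Mrpl (large subunit) or Mrps (small subunit) followed by a digit. On these arrays 76 of the 18194 genes analysed were such genes, 47 named for the large and 29 for the small subunit, and of the probe sets naming a single gene the one with the highest mean stands for it. Mrpl30 and Mrpl53 were represented only on probe sets that name several genes and were not analysed here. The series holds 39 Eµ-myc mouse lymphomas, deposited as a training dataset, with tumour RNA on 1 array each, and tumours are called here by the number in their label. The transgene drives Myc under the heavy chain enhancer of the immunoglobulin genes, so that carriers develop B lineage lymphomas. Every tumour carried the Eµ-myc genotype and was taken as frozen tissue when the mouse was ill or showed lymphoma. The labels give 1 group with no normal tissue, treatment or other contrast, and do not say whether any mouse gave more than 1 tumour. A p-value therefore speaks only of the spread among these samples, which may in part be technical.

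Mammalian mitochondria keep a small genome whose messenger RNAs encode core subunits of the respiratory chain and of ATP synthase, and these are translated by a ribosome of their own. The RNA of that ribosome is mitochondrial, whereas all of its proteins are encoded in the nucleus, made in the cytosol and imported, so the genes analysed here lie scattered over the chromosomes. Some of the proteins descend from bacterial ribosomal proteins and others have no bacterial counterpart. Myc is known to raise many genes of cytosolic ribosome assembly and of mitochondrial biogenesis.

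Array medians were close (log2 5.61 to 5.78), and r across probe sets between 2 arrays was at least 0.889. The tumours were checked against genes of the B lineage (9 measured, score given as the mean log2 level minus each gene's mean). The B lineage score was below -1 in tumours 5, 6, 8, 19, 23, 26 and 32, with values from -3.07 in tumour 23 to -1.01 in tumour 32, so these 7 go against the B lineage that the transgene's enhancer targets. The score of 5 plasmacytoid dendritic cell genes was 3.83 in tumour 32, 3.00 in tumour 5, 1.87 in tumour 19 and 1.55 in tumour 26, the 4 highest. Tumour 2 had a B lineage score of 0.05 but the lowest Myc level, 8.19, against 10.58 in the next lowest, tumour 8. Results are therefore given over all 39 tumours, without tumour 2, and without these 8 tumours, which leaves 31. Levels of different genes come from different probes and compare only roughly. Between genes the text gives only the range of mean levels and a cut at the median level of all genes.

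All 76 genes had a mean level above the median of all genes (6.56). Mean levels ran from 8.20 to 12.07 (log2). From tumour to tumour their spread was close to that of all genes, and smaller than that of genes at or above the median level. The median SD of the 76 genes was 0.33 (log2, n = 39), against 0.32 for all 18194 genes and 0.40 for genes at or above the median level. It was 0.08 for 42 cytosolic ribosomal protein genes, 0.21 for 64 nuclear-encoded respiratory chain genes and 0.46 for 28 nucleolar genes of ribosome biogenesis. The 29 small subunit genes had a median SD of 0.35, and the 47 large subunit genes 0.32. Without tumour 2 the median SD of the 76 was 0.28, against 0.31 for all genes and 0.37 for genes at or above the median level.

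The widest spread belonged to 3 genes named for the small subunit, the only members with an SD of at least 0.5. Mrps18a, a relative of the bacterial protein S18, had a lowest level of 8.95 in tumour 2, a median of 10.77 and a highest level of 11.70 in tumour 21. Mrps12, a relative of bacterial S12, which sits at the decoding centre, ran from 9.51 in tumour 2 over a median of 10.86 to 11.80 in tumour 22. Mrps28 ran from 9.09 in tumour 2 over a median of 10.90 to 11.42 in tumour 15, and tumours 6 (9.62) and 8 lay near its low end. Their SDs were 0.59, 0.56 and 0.52. Next came the large subunit genes Mrpl47 (SD 0.49), Mrpl36 and Mrpl37, and the small subunit genes Mrps6 and Mrps5. Mrps6 had a median of 9.65 and stood at 11.01 in tumour 5, with 10.56 in tumour 26 as the next highest and 8.32 in tumour 1 as the lowest. The smallest spread was found for Mrps33, Mrps16, Mrpl51 and Mrpl14. Mrps33 had an SD of 0.17, with a lowest level of 10.35 in tumour 2, a median of 11.05 and a highest of 11.28 in tumour 4.

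Mrps18a, Mrps18b and Mrps18c encode 3 relatives of a single bacterial protein. In structures of the mammalian mitochondrial ribosome the Mrps18a protein sits in the large subunit despite its name, as does that of Mrps30. Both are counted by their symbol with the small subunit in all values given by subunit. Mrps18b ran from 8.42 in tumour 2 over a median of 10.03 to 10.39 in tumour 30, and Mrps18c from 10.93 in tumour 2 over a median of 11.58 to 12.43 in tumour 21. Across tumours Mrps18a correlated with Mrps18c at r = 0.69 and with Mrps18b at r = 0.66, and Mrps18b with Mrps18c at r = 0.43. Over the 31 tumours these values were 0.57, 0.41 and 0.08.

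**Figure D1:**
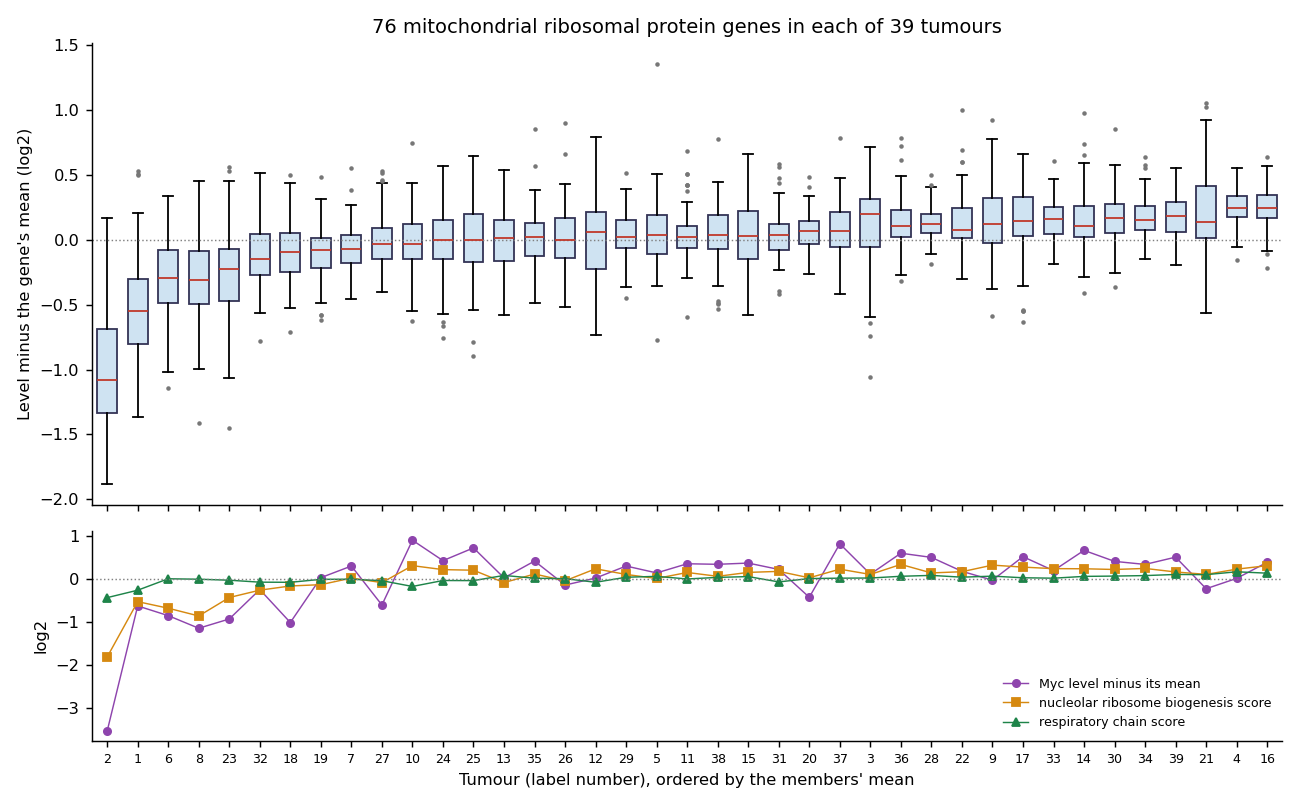
Upper panel: level minus the gene's mean (log2) of the 76 mitochondrial ribosomal protein genes in each tumour, as a box with its median line, whiskers to 1.5 times the box height and points beyond. Lower panel: Myc level minus its mean, nucleolar score and respiratory chain score (log2) in the same tumours, ordered by the mean of the 76 genes, where tumour 2 lies lowest at -1.02 and tumour 16 highest at 0.26.

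One tumour set the low end of most of these genes. Tumour 2 had the lowest level of 60 of the 76 genes, with a mean over them of -1.02 (log2, each gene minus its mean), against a median of -0.12 over all genes in that tumour. Mrpl38 was the 1 gene of the 76 that lay above its own mean there. Tumour 1 followed with a mean of -0.56 and the lowest level of 7 genes, and then tumours 6 and 8 (-0.28 each) and 23 (-0.25). At the other end tumours 16 (0.26), 4 (0.25) and 21 (0.21) had the highest means. In tumours 16 and 4 most genes lay a little above their mean, 72 and 74 of the 76. Tumour 21 held the highest level of 14 genes, more than any other tumour, while 57 of the 76 lay above their mean there.

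Tumour 2 also had the lowest nucleolar score (-1.81) and the lowest score of 17 genes of the G2 and M phases (-2.54), and the highest T cell score (3.17). Its other-cell score, the mean of the T cell, macrophage and fibroblast scores, was the highest at 1.87. In bulk tissue fewer cells of a type and less RNA per cell cannot be told apart. The part of other cells in the low levels of tumour 2 was not tested. Tumours 6, 8 and 23 had high macrophage scores (2.19, 1.64 and 1.77), and tumour 1 had a T cell score of 1.16.

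The genes moved together across tumours. The mean r between pairs of the 76 genes was 0.45, against 0.017 between all genes, and it was 0.52 among small subunit and 0.41 among large subunit genes. Lists of other genes gave 0.77 for nucleolar genes, 0.62 for 20 mitochondrial import and folding genes, 0.48 for 18 mitochondrial aminoacyl-tRNA synthetase genes and 0.23 for respiratory chain genes. Without tumour 2 the mean r of the 76 genes was 0.29, and over the 31 tumours 0.28, against 0.014 and 0.010 for all genes. The nucleolar genes then gave 0.62 and 0.43, and the respiratory chain genes 0.15 and 0.19. These correlations share arrays and are given as descriptions.

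Mrpl12 followed the others most closely. Its protein forms the flexible stalk of the large subunit, as L7/L12 does in bacteria. It correlated with the mean of the other 75 genes at r = 0.96, and at 0.88 over the 31 tumours. Its level ran from 9.59 in tumour 2 over a median of 11.58 to 12.15 in tumour 21. Mrps35, Mrps5, Mrps11 (each r = 0.93), Mrps22 (0.92) and Mrpl34 (0.91) came next, and over the 31 tumours they kept values from 0.79 (Mrpl34) to 0.89 (Mrps5). Mrps5, a relative of bacterial S5, ran from 7.71 in tumour 2 over a median of 9.46 to 9.87 in tumour 16. Mrps22, which has no bacterial counterpart and is mutated in a human mitochondrial disease, ran from 8.61 over 10.44 to 10.86 in tumour 9. Among single pairs Mrps22 with Mrps31 had the highest correlation, 0.94.

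A few genes went their own way. Mrpl52 correlated with the mean of the others at r = 0.04, Mrpl33 at 0.05, Mrpl24 at 0.11, Mrps16 at 0.16, Mrpl32 at 0.27 and Mrps34 at 0.30. Mrpl33 (0.31) and Mrpl24 (0.32) were no longer among the lowest over the 31 tumours, where the lowest were Mrpl44 (-0.25), Mrpl52 (-0.17), Mrps34 (-0.08), Mrpl13 (0.07) and Mrps16 (0.09). Mrpl52, a large subunit protein without a bacterial counterpart, ran from 11.05 in tumour 13 over a median of 11.57 to 12.60 in tumour 14, and tumour 2 did not stand out at 11.60. Mrpl33, a relative of bacterial L33, ran from 9.97 in tumour 35 over 10.28 to 11.22 in tumour 21. In Mrpl24, a relative of bacterial L24, the lowest level (10.85) was in tumour 21 and the highest (11.98) in tumour 23. For 10 of the 42 members with several probe sets the lowest correlation between them was under 0.2. Mrpl33 (-0.25), Mrpl17 (-0.30) and Mrpl3 (-0.30) were lowest. Mrpl47 (-0.11), Mrpl54, Mrpl1, Mrpl57, Mrpl19, Mrpl42 and Mrpl21 (0.10) were the others. The values of all 10, here and below, depend on the probe set.

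To show sequence at both ends of that order over all 39 tumours, the promoter windows of Mrpl12 and Mrps5 (high r) and of Mrpl33 and Mrpl52 (low r) are printed. The place of Mrpl33 changed with the tumours used and its probe sets differed, as given above. Windows hold the 250 bases before the gene start and the first 50 of the gene (RefSeq, GRCm38.p6, all 4 on the plus strand), and 67 of the 76 members had one. Capitals mark matches on either strand to 5 short motifs: the E-box CACGTG bound by Myc with Max, GCATGCGC (core of the NRF1 motif), CCGGAAG (core of the motif of ETS factors such as GABP), ATGGCGG (core of the YY1 motif) and the GC box GGGCGG. The YY1 core and the GC box both end in GGCGG but differ in the base before it, so 1 stretch cannot match both. Mrpl12 lies at chr11:120484387-120484686, Mrps5 at chr2:127587176-127587475, Mrpl33 at chr5:31613701-31614000 and Mrpl52 at chr14:54426659-54426958.
Mrpl12: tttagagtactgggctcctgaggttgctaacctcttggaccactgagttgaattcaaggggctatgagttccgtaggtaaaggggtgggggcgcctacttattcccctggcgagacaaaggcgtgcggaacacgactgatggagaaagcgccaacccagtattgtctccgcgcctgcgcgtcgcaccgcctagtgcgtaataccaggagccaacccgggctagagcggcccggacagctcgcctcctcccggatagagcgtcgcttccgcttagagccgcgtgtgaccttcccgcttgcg
Mrps5: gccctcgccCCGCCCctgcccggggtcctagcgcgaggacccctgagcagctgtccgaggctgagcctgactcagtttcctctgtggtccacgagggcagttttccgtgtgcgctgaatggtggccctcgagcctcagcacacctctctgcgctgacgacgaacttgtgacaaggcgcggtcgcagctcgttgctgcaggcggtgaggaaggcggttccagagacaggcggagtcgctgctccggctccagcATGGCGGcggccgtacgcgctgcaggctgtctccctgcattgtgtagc
Mrpl33: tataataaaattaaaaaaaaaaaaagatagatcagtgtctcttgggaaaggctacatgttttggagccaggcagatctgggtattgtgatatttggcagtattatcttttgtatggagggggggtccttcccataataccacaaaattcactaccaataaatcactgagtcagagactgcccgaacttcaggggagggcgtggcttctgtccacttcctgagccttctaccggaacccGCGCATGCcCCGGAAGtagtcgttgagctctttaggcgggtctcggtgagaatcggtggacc
Mrpl52: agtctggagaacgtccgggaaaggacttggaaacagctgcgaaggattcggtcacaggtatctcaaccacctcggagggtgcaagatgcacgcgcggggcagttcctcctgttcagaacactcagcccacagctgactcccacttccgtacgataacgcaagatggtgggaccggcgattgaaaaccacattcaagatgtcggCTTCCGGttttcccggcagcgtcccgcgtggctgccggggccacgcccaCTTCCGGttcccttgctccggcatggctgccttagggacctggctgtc

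The Mrpl12 window held none of the 5 motifs. The Mrps5 window held a GC box at -241 and a YY1 core at 2, counted to the match's first base from 0 at the gene start. Mrpl33 had an NRF1 core at -12 and an ETS core at -3, and Mrpl52 had ETS cores at -47 and 2. The ETS core was found in 25 of 67 members (37.3%), against 15.0% of the 14453 analysed genes with a window and 9.93% of all 27025 genes in the promoter table. The YY1 core stood in 12 members (17.9%, against 7.04% and 4.69%) and the NRF1 core in 8 (11.9%, against 4.68% and 3.05%). The E-box stood in 5 members (7.46%), against 10.2% of analysed genes and 8.09% of all genes, and the GC box in 34 (50.7%, against 57.3% and 38.2%). A match describes letters in the window and is no evidence of binding.

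The next question was which measures of a tumour the genes followed. Every gene was fitted with limma on a measure divided by its SD, so that a slope is in log2 per SD across the 39 tumours, and a gene counts as rising or falling at an adjusted p under 0.05 over all genes. The measures are the Myc level, the nucleolar score, the G2/M score, the respiratory chain score, a B cell stage score (precursor minus mature B cell genes), the other-cell score, an RNA quality measure (the 3' minus 5' difference of control probe sets) and the score of a gene's own chromosome. All were taken on the same tumours, so their counts are not independent of each other.

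Most of the genes were higher in tumours with more Myc transcript. Along the Myc level 60 of the 76 genes rose (78.9%) and 0 fell, where 18.7% of 18193 genes rose, and the median slope was 0.19 (log2 per SD) for the 76 and 0.01 for all genes. The 76 all lie at or above the median level, and in a fit of such genes alone 80.3% of the 76 rose, where 34.3% of 9096 genes did. In such fits the shares rising were 85.5% of the 76 against 36.6% of genes for the nucleolar score, 84.2% against 37.5% for the G2/M score, 89.5% against 27.8% for the respiratory chain score and 61.8% against 23.8% for the stage score. The shares falling along the other-cell score were 75.0% against 35.1%. Of the 47 large subunit genes 35 rose, and of the 29 small subunit genes 25. By origin, 23 of 29 large and 16 of 18 small subunit proteins with a bacterial relative rose, and 12 of 18 large and 9 of 10 small subunit proteins without one. Mrps36 is among the 29 but in no group by origin, since its protein is now known as a subunit of the 2-oxoglutarate dehydrogenase complex. Its slope was 0.02 ± 0.05 (SE, adjusted p = 0.78, limma).

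Mrps18a (0.40 ± 0.07, SE, n = 39, limma adjusted p = 1.3e-05) and Mrps28 (0.40 ± 0.05, adjusted p = 1.8e-07) had the steepest slopes along the Myc level. Mrps5 rose by 0.37 ± 0.04, Mrps22 and Mrpl34 by 0.36 ± 0.04 each, and Mrpl47 and Mrpl12 by 0.36 ± 0.05 and 0.35 ± 0.04. Mrpl34 is a relative of the bacterial protein L34 and Mrpl47 of L29. The flattest slopes were those of Mrpl33 (-0.04 ± 0.04), Mrpl32 (0.01 ± 0.05), Mrps36, Mrpl17 (0.03 ± 0.05) and Mrps16 (0.03 ± 0.03), none of which passed (limma adjusted p from 0.46 for Mrps16 to 0.95 for Mrpl32).

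The count changed with the tumours used. Without tumour 2, 39 of the 76 genes rose (51.3%), where 15.9% of all genes rose. Mrpl17, Mrpl33 and Mrpl45 then fell (3.95%), where 16.8% of all genes fell. Over the 31 tumours, a set chosen mostly by B lineage score, 12 rose (15.8%), where 4.68% of all genes rose. Mrps5 (0.22 ± 0.05) and Mrpl50 (0.21 ± 0.05) then had the steepest slopes of those 12 (limma adjusted p = 0.0053 and 0.0054). With the other-cell score as a covariate 23 rose (30.3%), where 4.78% of all genes did. Along the Myc level 8 of 9 T cell genes, 9 of 11 macrophage genes and 4 of 9 fibroblast genes fell, and the macrophage genes Cd163 (0.50) and Mrc1 (0.29) rose. With the nucleolar score as a covariate 0 of the 76 passed, and 6 had an unadjusted p under 0.05 (4 of all 18193 genes passed, each falling).

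**Figure D2:**
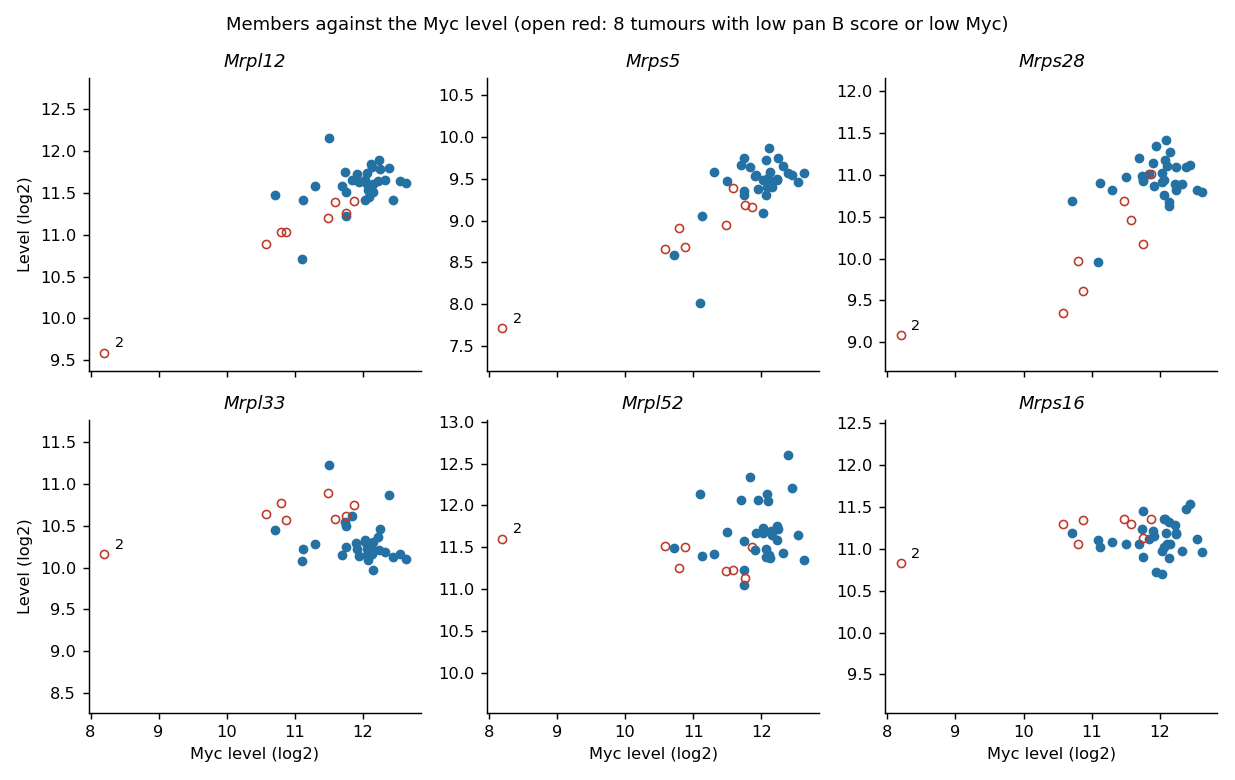
Level (log2) of 6 genes against the Myc level (log2), 1 point per tumour, with the 8 tumours of low B lineage score or lowest Myc as open red circles and tumour 2 numbered. Mrpl12, Mrps5 and Mrps28 are lowest in tumour 2 (9.59, 7.71 and 9.09), whereas Mrpl33, Mrpl52 and Mrps16 have slopes that did not pass.

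Over all tumours genes of the same pathway under other names moved likewise. For them no fit with tumours left out is given. Dap3, Ptcd3, Chchd1 and Gadd45gip1, which encode mitochondrial ribosomal proteins with other names, all rose along the Myc level, with slopes from 0.19 (Gadd45gip1) to 0.33 (Ptcd3). Of 12 measured genes of mitochondrial transcription and its regulators, 7 rose and 1 fell. Pprc1, a coactivator of the PGC-1 family, rose by 0.30 ± 0.04 (limma adjusted p = 6.8e-07), Tfam, which packs mitochondrial DNA, by 0.30 ± 0.04, and Polrmt, the mitochondrial RNA polymerase, by 0.26 ± 0.04. Tfb2m, Nrf1, Gabpa and Yy1 rose by 0.20, 0.16, 0.16 and 0.11. Esrra, a nuclear receptor of mitochondrial genes, fell by 0.25 ± 0.08 (adjusted p = 0.0089). Ppargc1a (-0.28 ± 0.12), Gabpb1 (0.13 ± 0.06), Ppargc1b (0.06 ± 0.06) and Tfb1m (0.02 ± 0.05) did not pass.

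Over all tumours most genes of other steps of mitochondrial gene expression showed the same direction. Along the Myc level 16 of 18 mitochondrial aminoacyl-tRNA synthetase genes, 10 of 12 translation factor genes, 13 of 21 ribosome assembly genes and all 20 import and folding genes rose. So did 12 of 16 genes of the tricarboxylic acid cycle, 32 of 64 respiratory chain genes (1 fell) and 28 of 28 nucleolar genes. Among cytosolic ribosomal protein genes 12 of 42 rose. Of all genes 18.7% rose, and 34.3% of genes at or above the median level did in a fit of such genes alone. The cytosolic ribosomal share lay between these values. List counts with tumours left out are not given, although the count of the 76 genes changed with the tumours used. The median slopes were 0.19 for the 76 mitochondrial ribosomal protein genes, 0.36 for nucleolar, 0.25 for import and folding, 0.07 for respiratory chain and 0.01 for cytosolic ribosomal protein genes.

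Along the nucleolar score, which follows the building of cytosolic ribosomes, 63 of the 76 genes rose (82.9%) and 0 fell, where 19.7% of 18166 genes rose, with a median slope of 0.21. Mrps28 (0.46 ± 0.04, limma adjusted p = 2.3e-12), Mrps18a (0.44 ± 0.06), Mrps5 (0.41 ± 0.03), Mrps22 (0.40 ± 0.03) and Mrpl47 (0.40 ± 0.05) were steepest. The 13 that did not pass were Mrps6, Mrpl4, Mrpl41, Mrpl14, Mrps34, Mrpl45, Mrpl52, Mrps36, Mrpl17, Mrpl32, Mrps16, Mrpl24 and Mrpl33. Without tumour 2 the count was 52 (68.4%), where 18.5% of all genes rose, and over the 31 tumours 37 (48.7%), where 10.2% rose. Tumour 1 had the lowest nucleolar score of those 31 (-0.53), with -0.16 in tumour 18 next. It was lowest there also on the G2/M score (-1.06) and the respiratory chain score (-0.26). No fit was made without tumour 1, so its weight over the 31 was not tested. In those 31 Mrps12 and Mrps5 (0.32 each), Mrps18a (0.29), Mrpl50 (0.28) and Mrpl47 (0.27) were steepest, and Mrps5 had a limma adjusted p of 1.9e-07.

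Along the G2/M score 63 of the 76 rose (82.9%) and 0 fell, where 19.9% of 18177 genes rose, and the median slope was 0.21. Mrps28 (0.45 ± 0.04), Mrps18a (0.42 ± 0.07) and Mrps22 (0.40 ± 0.03, limma adjusted p = 7.8e-13) led. Over the 31 tumours 32 rose (42.1%), where 12.7% of genes rose. Mrpl44 fell (-0.12 ± 0.03, limma adjusted p = 0.012), 1.32% of the 76, where 8.24% of genes fell. With the nucleolar score as a covariate Mrpl58 and Mrpl46 rose and Mrpl44 fell (-0.32 ± 0.09, adjusted p = 0.025), where 3.32% of all genes rose and 2.57% fell. Mrpl44 has a domain related to RNase III.

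**Figure D3:**
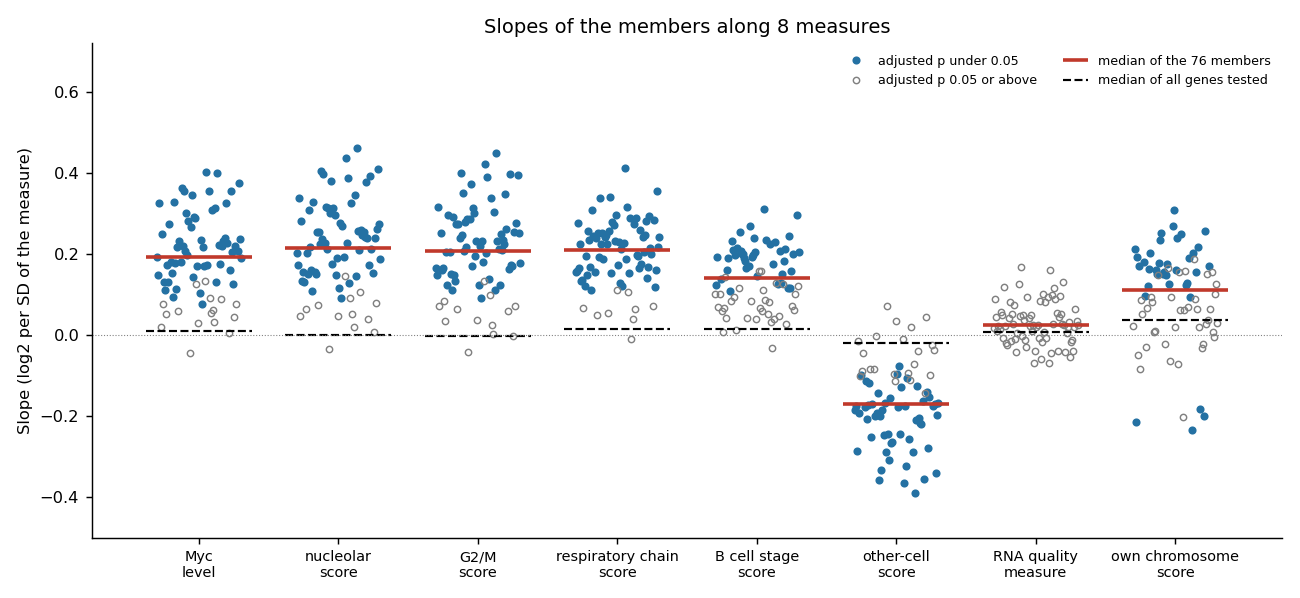
Slope (log2 per SD of the measure) of each of the 76 genes along 8 measures, filled where the limma adjusted p was under 0.05, with the median of the 76 (red line) and of all genes tested (dashed line). The 76 genes lie mostly above 0 for the Myc level, nucleolar, G2/M, respiratory chain and stage scores, mostly below 0 for the other-cell score, and around 0 for RNA quality.

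Along the respiratory chain score, the mean of 64 nuclear-encoded subunit genes, 67 of the 76 rose (88.2%), the most of the 8 fits, and 0 fell, where 14.0% of 18130 genes rose. The median slope was 0.21. Mrps18a (0.41 ± 0.07, limma adjusted p = 3.6e-05), Mrps5 (0.36 ± 0.05), Mrpl12 (0.34 ± 0.04), Mrps22 (0.34 ± 0.05) and Mrpl34 (0.32 ± 0.05) were steepest. Mrpl17, Mrpl43, Mrpl24, Mrpl44, Mrpl13, Mrpl33, Mrps34, Mrps16 and Mrpl52 did not pass. Without tumour 2 the count was 29 (38.2%), where 2.2% of all genes rose, and over the 31 tumours 32 (42.1%), where 4.31% rose.

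With the nucleolar score as a covariate 16 of the 76 still rose along the respiratory chain score (21.1%), where 2.97% of all genes did. They were Mrpl36 (0.31 ± 0.08), Mrpl23 (0.26 ± 0.05, limma adjusted p = 0.0037), Mrps36 (0.25 ± 0.05), Mrpl58, Mrps27, Mrps25, Mrpl48, Mrps30, Mrpl10, Mrpl27, Mrpl41, Mrpl12, Mrps5, Mrpl15, Mrps35 and Mrps33. Mrpl58 encodes a peptidyl-tRNA hydrolase that frees stalled mitochondrial ribosomes, and Mrps27 a protein of the pentatricopeptide repeat family. Of the 16, Mrps5 and Mrpl12 were also among the steepest along the Myc level, whereas Mrpl58, Mrps36 and Mrpl41 did not pass there.

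Along the B cell stage score 42 of the 76 rose (55.3%) and 0 fell, where 11.9% of 18175 genes rose, so that levels were higher on the precursor side. Mrps18a (0.31 ± 0.08), Mrps5 (0.30 ± 0.06), Mrpl12 (0.27 ± 0.05), Mrps22 (0.26 ± 0.06) and Mrpl37 (0.24 ± 0.06, limma adjusted p = 0.0054) led. Without tumour 2, which had the lowest stage score (-4.14), 11 rose (14.5%), where 3.68% of all genes did, and with the other-cell score as a covariate 3 rose (3.95%), Mrpl58, Mrpl23 and Mrpl27, where 1.66% of all genes did. Along the other-cell score 54 of the 76 fell (71.1%) and 0 rose, where 21.5% of 18165 genes fell. Mrps28 (-0.39 ± 0.06), Mrps18a (-0.36 ± 0.07), Mrps22 (-0.36 ± 0.04) and Mrps9 (-0.36 ± 0.04) were steepest, and over the 31 tumours 7 fell (9.21%), where 5.48% of all genes did. Along the RNA quality measure 0 of the 76 passed (6 had an unadjusted p under 0.05), where limma called 0.0165% of 18194 genes in either direction.

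The members were also set against the genes around them. For each gene the score of its own chromosome is the mean centred level of the other genes there that lie at or above the median level, the 76 left out, minus the same mean over all chromosomes. It is an expression measure, and DNA copy number was not measured. Along it 32 of the 76 rose (42.1%), where 14.1% of 18022 genes did, and 4 fell (5.26%), where 0.866% did. In a fit of genes at or above the median level alone, from which the scores are built, 46.1% of the 76 rose, where 29.9% of 9076 genes did. The median slope was 0.11 for the 76 and 0.10 for those genes. With the mean of the 76 genes as a covariate, which removes what they share, 48 rose (63.2%) and 0 fell, where 15.5% of all genes rose. That mean is made of the 76 genes and of no others, and the 15.5% covers genes of every level. These shares are therefore not like for like. Over the 31 tumours 40 rose (52.6%), where 18.1% of all genes did, and Mrps18a fell (1.32%), where 0.688% did. Of the other lists, 34 of 64 respiratory chain genes rose along their own chromosomes and 1 fell, and 2 of 28 nucleolar genes rose and 2 fell.

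**Figure D4:**
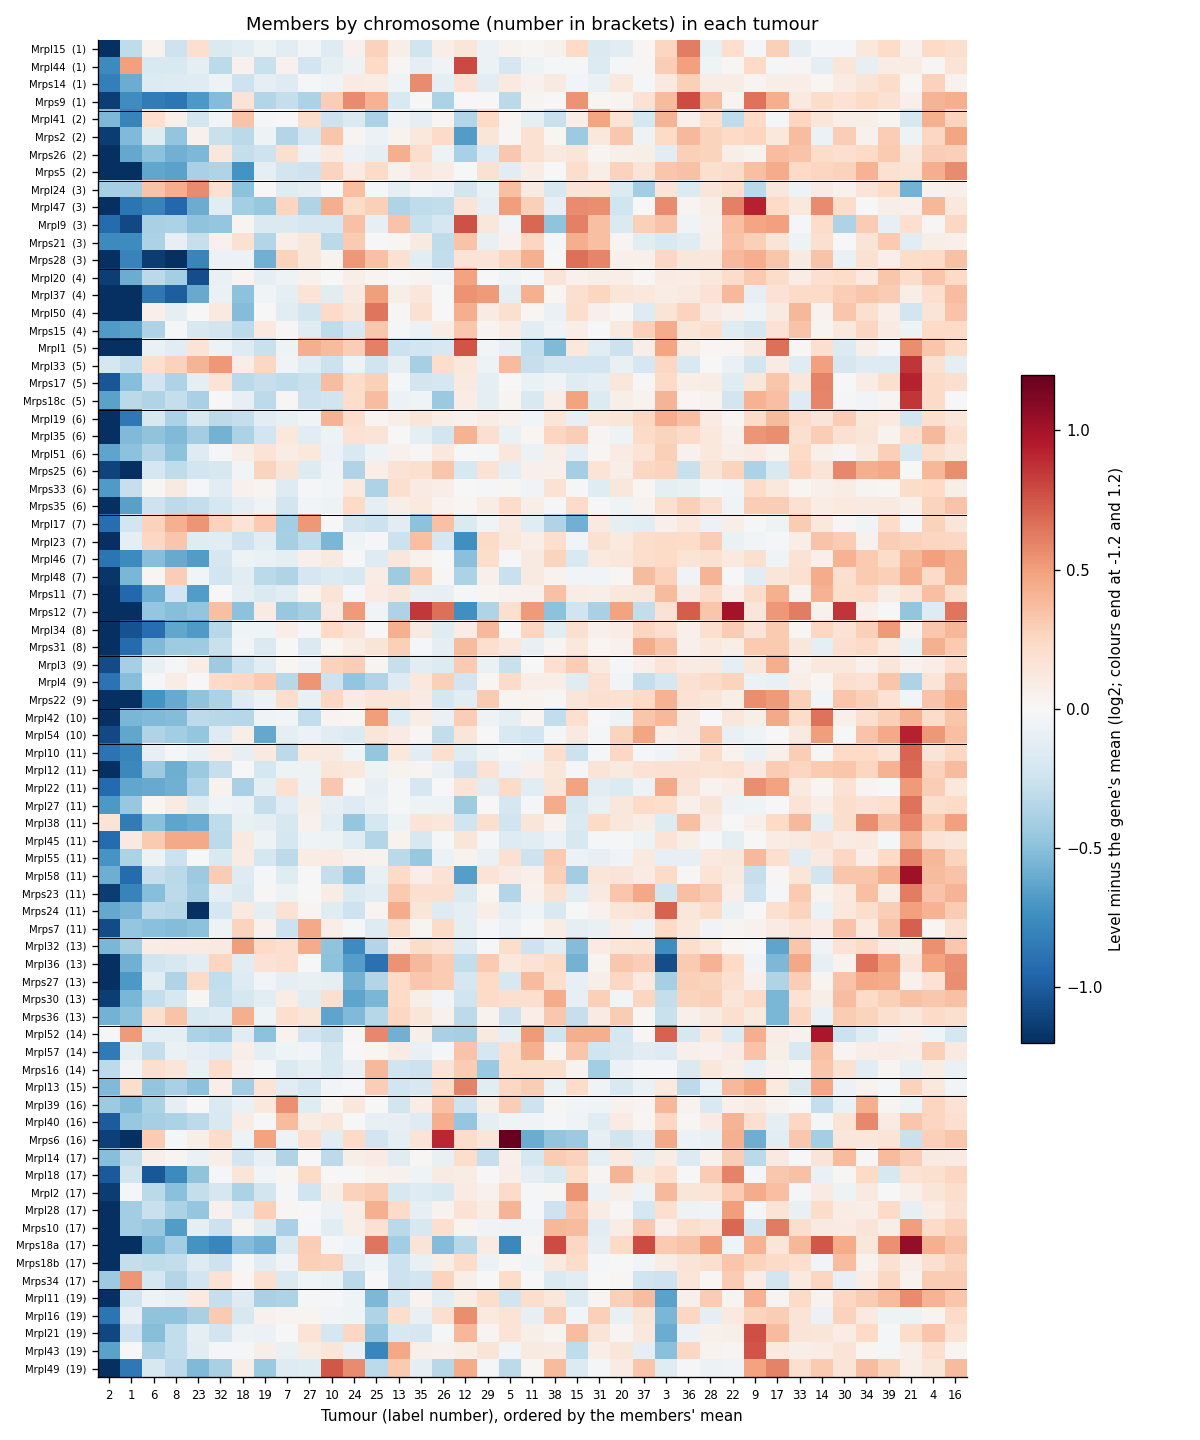
Level minus the gene's mean (log2, colour) of the 76 genes (rows, grouped by chromosome) in 39 tumours (columns, ordered by the mean of the 76). Besides the low columns of tumours 2 and 1, blocks of genes on 1 chromosome are low or high together, such as the 5 genes of chromosome 13 in tumours 17, 24, 3 and 25 and the 4 of chromosome 5 in tumour 21.

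Chromosome 13 gave the clearest block. Its score was lowest in tumours 17 (-0.58), 24 (-0.51), 3 (-0.43), 25 (-0.35) and 10 (-0.33). Mrpl36, a relative of the smallest bacterial large subunit protein, had a median of 10.12 and stood at 9.43 in tumour 17, 9.31 in tumour 24, 8.91 in tumour 3 and 9.07 in tumour 25. Its 8 lowest levels were those of tumours 2 (8.74), 3, 25, 24, 1 (9.39), 15 (9.40), 17 and 10 (9.48). Mrpl32, whose protein is cut by a mitochondrial protease before assembly, had a median of 10.76, and its lowest level, 9.91 in tumour 24, was below the 10.11 of tumour 2. Along the chromosome 13 score Mrpl36 rose by 0.31 ± 0.06 (limma adjusted p = 0.00015), Mrpl32 by 0.26 ± 0.04 (adjusted p = 4.3e-06), Mrps36 by 0.19 ± 0.04 and Mrps30 by 0.16 ± 0.05. Mrps27 (0.16 ± 0.06) did not pass, but rose by 0.19 ± 0.03 given the mean of the 76 (adjusted p = 1.5e-05), as all 5 did.

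Tumour 21 stood high for several chromosomes and lowest for others. Its scores were the lowest of all tumours on chromosomes 1 (-0.15), 3 (-0.18), 4 (-0.16) and 6 (-0.15). All 4 members on chromosome 5 rose along its score, which was highest in tumour 21 (0.47). Mrps17, a relative of bacterial S17, reached 11.53 there against a median of 10.61, Mrps18c 12.43 against 11.58 and Mrpl33 11.22 against 10.28. Mrps17 rose by 0.25 ± 0.03 (limma adjusted p = 2e-06), Mrps18c by 0.21 ± 0.04, Mrpl1 by 0.24 ± 0.06 and Mrpl33 by 0.15 ± 0.04. The lowest chromosome 5 scores were those of tumours 1 (-0.14), 6 (-0.14), 8 (-0.13) and 2 (-0.12), where the mean of the 76 genes was also lowest. Given that mean all 4 still rose, Mrps17 by 0.19, Mrps18c by 0.17, Mrpl1 by 0.16 and Mrpl33 by 0.16. Of 11 members on chromosome 11, whose score was also highest in tumour 21 (0.27), 7 rose, led by Mrpl58 (0.27 ± 0.04, adjusted p = 9.5e-06), which stood at 11.12 in tumour 21 and at a median of 10.18. Mrpl12 (0.16 ± 0.06) on the same chromosome passed only given the mean of the 76 (0.06 ± 0.02, adjusted p = 0.037). On chromosome 10, where the score was highest in tumour 21 as well (0.36), Mrpl54 and Mrpl42 both rose, though the probe sets of each disagreed. The next highest scores were 0.25 in tumour 32 on chromosome 5, 0.06 in tumour 3 on chromosome 11 and 0.29 in tumour 37 on chromosome 10. No fit was made without tumour 21, so its weight in these slopes was not tested.

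Mrpl52 and Mrps16, which followed the rest little, followed their chromosome. Genes that followed the rest also did so, such as Mrpl40 (r = 0.77 with the other members) and Mrpl57 (0.66). All 3 members on chromosome 14 rose along its score, which was highest in tumours 25 (0.35) and 11 (0.32): Mrpl52 by 0.19 ± 0.05 (limma adjusted p = 0.0046), Mrps16 by 0.09 ± 0.03 and Mrpl57 by 0.10 ± 0.03. So did Mrpl39, Mrpl40 and Mrps6 on chromosome 16, and Mrpl13 on chromosome 15 (0.20 ± 0.03, adjusted p = 2.1e-05). On chromosome 15, which also carries Myc, Mrpl13 is the only member. Mrpl24 on chromosome 3 (0.06 ± 0.04) and Mrps34 on chromosome 17 (0.01 ± 0.04) did not pass. Of the 5 members on chromosome 19, Mrpl43 rose, and Mrpl11, Mrpl16 and Mrpl21 joined it given the mean of the 76. In tumours 3 and 25, with the lowest chromosome 19 scores (-0.54 and -0.46), Mrpl43 stood at 10.28 and 9.99, against a median of 10.83.

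The 4 genes that fell along their own chromosome, Mrpl35, Mrpl19, Mrps25 and Mrps35, all lie on chromosome 6. The score of chromosome 6 was highest in tumour 2 (0.24), where most of the 76 genes were lowest. Mrpl35 stood at 9.78 and Mrpl19 at 8.75 in tumour 2, against medians of 11.39 and 10.58. Mrpl35 fell by 0.24 ± 0.05 (limma adjusted p = 0.00068), and given the mean of the 76 its slope was 0.01 ± 0.04 (adjusted p = 0.9). No member on chromosomes 1, 7, 9 or 17 passed in either direction, and given the mean of the 76, 3 of 4 rose on chromosome 1, 4 of 8 on 17, 1 of 6 on 7 and 1 of 3 on 9.

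**Figure D5:**
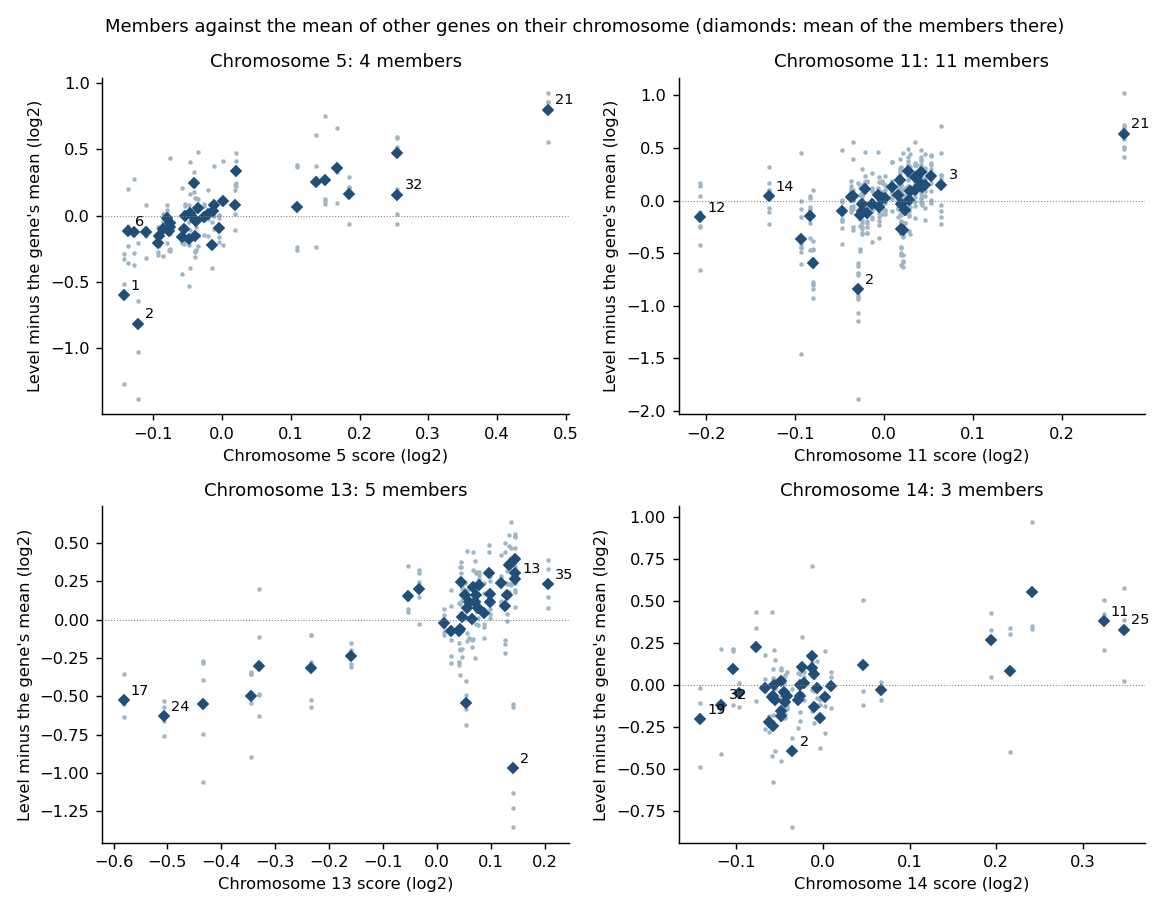
Level minus the gene's mean (log2) of the members on chromosomes 5, 11, 13 and 14 (small points) and their mean (diamonds) against the score of that chromosome (log2), 1 column of points per tumour, with extreme tumours and tumour 2 numbered. Members rise with the score, from tumours 17 and 24 on chromosome 13 and up to tumour 21 on chromosomes 5 and 11, while tumour 2 lies low on each.

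Pairs of members on the same chromosome (178 pairs) correlated at a mean r of 0.58, and pairs on different chromosomes (2672 pairs) at 0.44. Over the 31 tumours the values were 0.50 and 0.27. Mrpl52 had the most opposed partners, with r = -0.42 with Mrpl32 and with Mrps6 and -0.40 with Mrpl36. Of the members with a promoter window, all 12 with a YY1 core and all 5 with an E-box rose along the Myc level, as did 19 of 25 with an ETS core and 5 of 8 with an NRF1 core. Without the YY1 core 42 of 55 rose, without the E-box 49 of 62, without the ETS core 35 of 42 and without the NRF1 core 49 of 59. No test was made of these counts.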

How the data were processed

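Total RNA of 39 tumours, 1 group by the labels, was hybridised to 1 array each. The authors deposited log2 levels per probe set, for which the submitters' processing notes name RMA and affy. RMA includes quantile normalization, which hides changes in a cell's total RNA. The number of arrays limits the precision, and the labels name no batch. The mean of the poly-A control probe sets was 6.70 (log2) in tumour 39, against 8.69 (tumour 6) to 9.66 (tumour 2) in the others. That mean is 1 of the RNA quality covariates used below, and no fit left tumour 39 out.

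Of 45101 probe sets the platform annotation listed 35890, of which 34958 named 1 gene, 932 several, and 9211 were not listed. By Entrez identifier 34754 matched a gene table of GRCm38.p6, and 0 symbols changed. Each of 18194 genes was represented by its probe set with the highest mean. The members, the 22 lists (336 of 356 entries measured), predictors and tests were chosen with earlier results of these data known. A list score is the mean of its genes' centred log2 levels.

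Every gene was fitted with limma 3.58.1 (lmFit, eBayes with trend, R 4.3.3) on each of 8 measures, 2-sided, with Benjamini-Hochberg adjustment over all genes tested and a threshold of 0.05. A fit on a score excluded the genes that make it up. The fits were tested on simulated data. Named genes are the 5 largest slopes in each direction per fit, the 8 members of largest and 4 of smallest SD, the 6 of highest and 6 of lowest r with the others, the Mrps18 genes and the regulators. The members named beside a chromosome, a motif or a left-out tumour were chosen after their values were seen. Fits without tumour 2, with the nucleolar score or with the mean of the 76 genes as a covariate were added after the data were seen.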

Additional observations from a re-analysis of the deposited data

How the results depend on the processing

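For the counts of members called and for their spread, 110 alternatives left a count within 1.5 times of its value, or the spread within the spread among members, and 36 did not. Counts of 0 in both fits were taken as unmoved and are among the 110, as in all alternatives along the RNA quality measure. Leaving out genes below the median level removed none of the 76, so it could not move their spread. The 110 therefore include alternatives that could hardly move. The mean r between members, 0.45, was 0.29 without tumour 2, 0.28 without tumours 2, 6 and 8 and 0.28 over the 31 tumours. For 39 slopes of single members, 282 of 336 alternatives kept direction and call, 45 lost the call and 9 reversed. Members rising along the Myc level (60) numbered 39 without tumour 2 (3 falling), 23 without tumours 2, 6 and 8, 12 over the 31 tumours, 23 with the other-cell score and 0 with the nucleolar score as a covariate, and 38 on ranks. Along the nucleolar score (63) they numbered 37 over the 31 tumours. Along the G2/M score (63) they numbered 32 over the 31 tumours and 2 given the nucleolar score. In each of these, on ranks and without tumour 2, 1 fell, where 15.5% of all genes fell on ranks and 22.4% without tumour 2. Along the respiratory chain score (67) members rising numbered 29 without tumour 2, 32 over the 31 tumours and 16 given the nucleolar score. Without tumours 2, 6 and 8 they numbered 37 (48.7%), where 4.08% of all genes rose. Along the stage score (42) they numbered 11 without tumour 2, 14 without tumours 2, 6 and 8 and 16 over the 31 tumours. They numbered 3 given the other-cell score, 4 given the nucleolar score and 26 on ranks. Shares rising without tumours 2, 6 and 8 were 18.4% of members and 5.49% of all genes, and over the 31 tumours 21.1% and 6.91%. Given the nucleolar score they were 5.26% and 1.67%, and on ranks 34.2% and 7.52%. Members falling along the other-cell score (54) numbered 31 (2 rising), 21 (1 rising) and 7 for the same 3 sets, and 34 on ranks. Without tumour 2 the shares falling were 40.8% of members and 16.6% of all genes, and those rising 2.63% and 17.1%. Without tumours 2, 6 and 8 they were 27.6% and 13.0% falling and 1.32% and 12.5% rising. On ranks 44.7% of members and 17.8% of all genes fell. Members falling along their own chromosome (4) numbered 2 without tumour 2 and 2 on ranks (2.63% each), where 0.51% and 0.799% of all genes fell. They numbered 1 over the 31 tumours. They numbered 0 without tumours 2, 6 and 8 and given the other-cell score, where 0.466% and 0.433% of all genes fell. Given the mean of the 76 genes 0 fell, where 0.344% of all genes did. Given the nucleolar score, slopes along the Myc level became -0.0015 for Mrps18a, -0.17 for Mrps28, -0.014 for Mrps5, -0.063 for Mrps22 and -0.0074 for Mrpl34. Given the mean of the 76, slopes along chromosome 6 became 0.022 for Mrps35, 0.030 for Mrps25, 0.060 for Mrpl19 and 0.012 for Mrpl35. The cause was not tested. Settings without tumour 2, given the nucleolar score and given the mean of the 76 were chosen after seeing the data. The mean of all probe sets, the filter on dim genes and the RNA quality covariates moved none of these counts by over 1.5 times. The filter on dim genes did raise the shares of all genes called, for instance to 34.3% along the Myc level (18.7% of all genes), 27.8% along the respiratory chain score (14.0%) and 29.9% along the own chromosome (14.1%). No paired analysis was possible because the labels give 1 group.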
